A study of Mus musculus with 18 samples.

Results

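Trefoil factors, gastrokines and genes grouped with them as gastric mucous genes were followed in mouse pancreatic tumour cells. The group held 10 genes, out of 35642 gene symbols measured. Not every member is secreted or particular to the stomach. The 10 were Tff1, Tff2, Tff3, Gkn1, Gkn2, Ctse, Mucl3, Lgals4, Spink4 and Plac8. They were chosen by their measured levels in these libraries, which were lower in 1151 cells labelled Mcu knockout and, for some of them, higher in 2838 clones labelled knockout. Those contrasts are therefore given as description, without a test. Tests of these genes are kept to contrasts between clones of the same label, which the choice did not name. Levels in the same clones entered the choice, so these tests are not independent of it. PolyA RNA was sequenced from cultured, untreated cells of KPCY tumours, which carry KrasLSL-G12D/+ and Trp53 LSL-R172H/+ alleles activated by Pdx1-Cre, a recombinase driven in the pancreas, with the R26LSL-Yfp/LSL-Yfp reporter. Mcu encodes the pore of the mitochondrial calcium uniporter. The 6 groups had 3 libraries each: 1151 cells that lost Mcu through Cre and carry an empty vector (labelled knockout), the same Cre-deleted 1151 cells with MCU put back (re-expressing), 2838 CRISPR-knockout clones 17 and 42, and 2838 wild-type clones 15 and 22 with an empty vector. Both 1151 populations were kept in puromycin, and no vector is named for the CRISPR clones. Each 2838 group is 1 clone, so a difference between clones includes whatever else sets single clones apart. Line 1151 is labelled batch 1 and line 2838 batch 2, so line and batch cannot be told apart and levels were tested only within a line.

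Trefoil factors are small, disulfide-rich peptides that mucous cells secrete together with mucins and that help to protect and repair the mucosa. Tff1 is made mainly by the surface pit cells of the stomach, Tff2 by gastric neck and antral gland cells and Tff3 by intestinal goblet cells. Gastrokines are secreted by gastric surface cells as well. In the pancreas this gastric programme is known from mucinous precursor lesions and from the classical, more epithelial form of the carcinoma rather than from normal ducts.

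Across the 18 libraries, values were transcripts per 1000000 (TPM), a measure that allows for transcript length and has the same total in every library, so depth was not kept. The number of genes at 1 TPM or more ran from 10760 to 11507. Wild-type clone 22 replicate 3 had the fewest, and its upper quartile was 3.73 TPM against 6.36 to 7.85 TPM in the other libraries. Mcu stood at 13.3 to 16.6 TPM in 1151 cells labelled knockout and 13.2 to 15.3 TPM in re-expressing cells. In 2838 it stood at 113 to 123 TPM in clone 17 and 10.5 to 12.3 TPM in clone 42, both labelled knockout, and at 68.4 to 81.2 TPM in wild-type clone 15 and 59.3 to 96.3 TPM in wild-type clone 22. Among the groups labelled knockout, Mcu RNA was therefore below its control only in clone 42, and directions drawn from clone 17 or from the 1151 cells rest on the label. Ductal epithelial markers (Krt19, Krt7, Krt8, Krt18 and Sox9) summed to 4076 to 6472 TPM per library. Of 4 fibroblast markers none reached 1 TPM in any library. Of 4 leukocyte markers Cd68 alone did, and the 4 summed to at most 6.33 TPM. Of 3 acinar markers Cela1 alone did, in 2838. Cdh5, an endothelial cadherin, reached 1 TPM in the 1151 re-expressing cells only, where Pecam1 and Cdh5 together stood at 4.74 to 5.38 TPM against at most 0.136 TPM in the 1151 knockout cells. The part of this difference in the results was not tested.

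The members lie at few places in the genome. Tff3, Tff2 and Tff1 form one cluster on chromosome 17 (mm10, all on the minus strand), from 31125306 to 31129646, from 31141049 to 31144282 and from 31161395 to 31165277. Gkn1 (chromosome 6, 87345650 to 87350942, minus strand) and Gkn2 (87373357 to 87379497, plus strand) are neighbours that point away from each other. Mucl3 is on chromosome 17 (35635752 to 35643695, minus strand), Ctse on chromosome 1 (131638306 to 131675505, plus strand), Spink4 on chromosome 4 (40920052 to 40931395, plus strand), Plac8 on chromosome 5 (100553725 to 100572245, minus strand) and Lgals4 on chromosome 7 (28833854 to 28841708, plus strand). Upstream sequence from RefSeq (GRCm38.p6, the assembly of mm10) was matched for 5 of the 10 members. The 250 bases before the start are printed for the 2 gastrokines and Mucl3, the members that stood furthest above the wild-type clones in the 2838 clones labelled knockout. They were searched on both strands, up to 50 bases past the start, for the forkhead cores TGTTTAC and, in a second form, TATTTAC, the zinc finger (GATA family) letters AGATAA, the Krüppel-like letters CCACCC, and the TATA box TATAAA. Capitals mark the matches.
Gkn1, chr6:87350916-87351165, minus strand: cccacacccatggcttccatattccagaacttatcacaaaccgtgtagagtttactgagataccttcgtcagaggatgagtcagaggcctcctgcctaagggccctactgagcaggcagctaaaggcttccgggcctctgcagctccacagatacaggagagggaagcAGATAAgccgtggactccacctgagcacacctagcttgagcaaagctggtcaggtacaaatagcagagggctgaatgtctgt
Gkn2, chr6:87373115-87373364, plus strand: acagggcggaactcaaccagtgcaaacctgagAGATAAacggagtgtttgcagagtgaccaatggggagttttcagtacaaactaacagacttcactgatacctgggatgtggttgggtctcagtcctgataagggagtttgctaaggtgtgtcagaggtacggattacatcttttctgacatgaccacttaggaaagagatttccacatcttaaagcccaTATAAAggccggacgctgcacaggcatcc
Mucl3, chr17:35643696-35643945, minus strand: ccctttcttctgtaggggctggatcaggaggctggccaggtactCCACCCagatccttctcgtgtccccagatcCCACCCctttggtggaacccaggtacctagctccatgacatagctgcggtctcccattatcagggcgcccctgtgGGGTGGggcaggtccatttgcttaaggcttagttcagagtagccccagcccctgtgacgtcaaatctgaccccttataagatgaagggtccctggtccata
AGATAA was found once in each gastrokine window, 82 bases before the start of Gkn1 and 218 bases before that of Gkn2, and is present in 11.2% of 32851 promoter windows of this length. The Gkn2 window also held TATAAA 29 bases before the start (13.6% of windows). CCACCC was found 3 times in the Mucl3 window, counting its reverse complement GGGTGG (31.5% of windows), and 2 times in that of one Plac8 start. Forkhead cores, present in 3.65% (TGTTTAC) and 3.04% (TATTTAC) of windows, were not among these letters, and no motif was matched for Lgals4. These are matches of letters and not mapped binding sites.

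In 1151, the trefoil cluster was silent or nearly so in the cells labelled knockout and among the abundant transcripts of the re-expressing cells. Tff1 stood at 0.62, 0 and 0.612 TPM in the 3 libraries labelled knockout, against 4356, 4111 and 4318 TPM in the 3 re-expressing libraries. Tff2 was listed at 0 in all 3 libraries labelled knockout, against 515, 539 and 485 TPM in the re-expressing libraries. Tff3 was likewise listed at 0 in the 3 libraries labelled knockout, against 263, 265 and 205 TPM. The 3 genes together made up at most 0.62 TPM per library in the cells labelled knockout and between 4915 and 5134 TPM in the re-expressing cells. In bulk RNA, fewer cells that make these transcripts and less transcript per cell cannot be told apart.

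The gastrokines were low in this line in either state. Gkn1 was at 0 in every library labelled knockout, against 0.365, 0.58 and 0.487 TPM in the re-expressing ones, below the 1 TPM filter used for testing. Gkn2 stood at 0, 0.49 and 0 TPM in the cells labelled knockout, against 4.4, 6.14 and 3.55 TPM in the re-expressing cells. The groups did not overlap for either gene, but at this level a single value says little.

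Other members were abundant in re-expressing cells and remained detectable in the cells labelled knockout. Plac8, a small cysteine-rich protein linked to growth of pancreatic tumour cells, stood at 29, 29 and 27.1 TPM in the cells labelled knockout, against 1263, 1345 and 1237 TPM in the re-expressing cells (45.2-fold lower by means). Spink4, a Kazal-type protease inhibitor of goblet cells, stood at 3.06, 0.39 and 2.44 TPM in the cells labelled knockout, against 85.5, 90.6 and 78 TPM (43.1-fold lower). Ctse, the aspartic protease cathepsin E of gastric surface cells, stood at 5.42, 5.65 and 6.19 TPM in the cells labelled knockout, against 132, 144 and 146 TPM (24.4-fold lower). These 3 genes kept a remnant of a few per cent of their re-expressing level.

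Lgals4, galectin-4, a sugar-binding protein of digestive epithelium, was the member with the highest level in the cells labelled knockout, at 69.5, 71.6 and 73.5 TPM, against 415, 373 and 375 TPM in the re-expressing cells (5.42-fold lower). A close mouse copy of this gene, Lgals6, has no row of its own in the table, so reads of the 2 genes cannot be told apart. Mucl3, a mucin-like membrane glycoprotein encoded in the MHC region, stood at 0.686, 0.796 and 0.777 TPM in the cells labelled knockout, against 3.24, 2.14 and 2.8 TPM in the re-expressing cells. On the log2(TPM + 1) scale, which understates differences of low genes, the 10 differences ran from -11.60 for Tff1 to -0.56 for Gkn1. All 10 members had every library labelled knockout below every re-expressing library, a pattern that 29.8% of the 11630 genes tested showed. Since the members were chosen for it, nothing is read from that count. Summed over the 10, the members made up 0.0108% to 0.0111% of the total in the cells labelled knockout and 0.686% to 0.705% in the re-expressing cells.

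**Figure D1:**
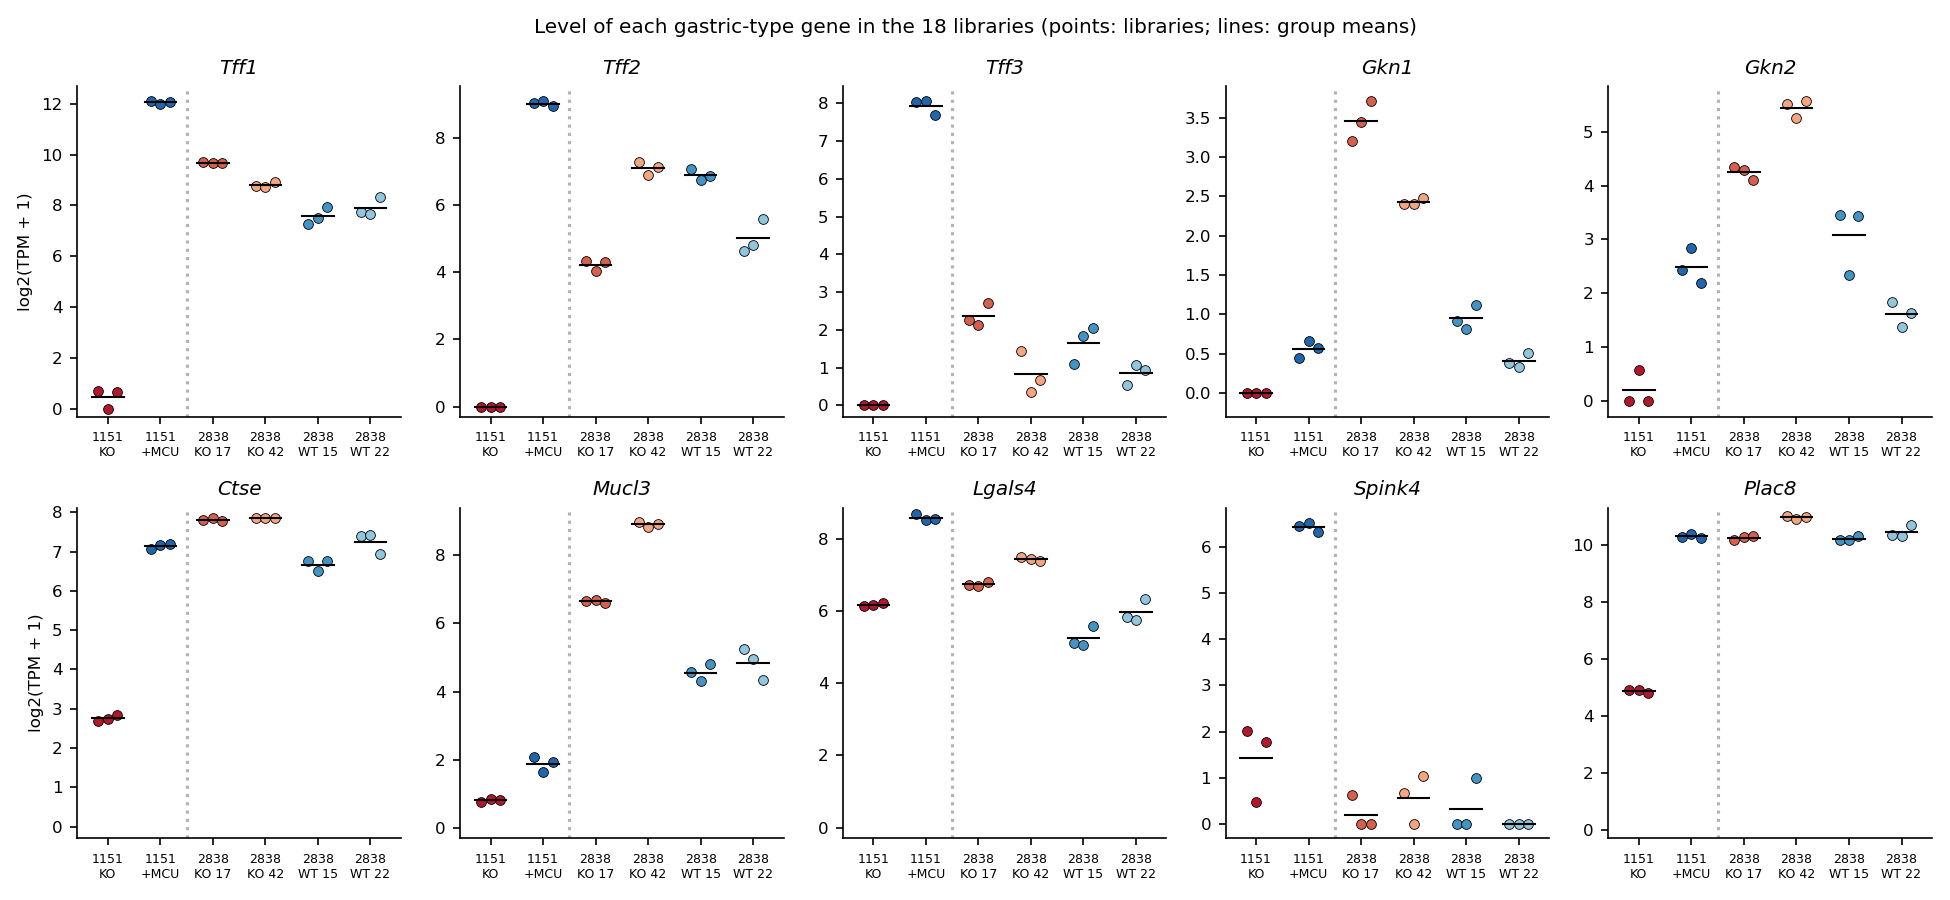
Level of each of the 10 genes on the log2(TPM + 1) scale (vertical axis) in each library (points) of the 6 groups (horizontal axis), with group means as lines; the dotted line separates line 1151 (batch 1) from line 2838 (batch 2). In 1151 the knockout-labelled points lie below the re-expressing points in every panel, while in 2838 the order of the clones differs from gene to gene.

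In 2838, levels in the clones labelled knockout stood above the wild-type clones for 6 members, overlapped for 4, and did not lie wholly below for any. Mucl3 had the widest gap on the log2(TPM + 1) scale. It stood at 99.99, 102 and 95.6 TPM in clone 17 and 505, 456 and 479.6 TPM in clone 42, against 22.9, 18.7 and 26.9 TPM in wild-type clone 15 and 36.8, 30.2 and 19.3 TPM in wild-type clone 22. Both clones labelled knockout were above both wild-type clones in all libraries, and the mean was 11.2-fold higher.

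The gastrokines stood higher as well. Gkn1 stood at 8.18, 9.92 and 12.1 TPM in clone 17 and 4.29, 4.28 and 4.57 TPM in clone 42, against 0.892, 0.766 and 1.17 TPM in wild-type clone 15 and 0.301, 0.258 and 0.429 TPM in wild-type clone 22. Gkn2 stood at 19.3, 18.6 and 16.2 TPM in clone 17 and 45.0, 37.3 and 46.7 TPM in clone 42, against 9.89, 4.06 and 9.84 TPM in wild-type clone 15 and 2.55, 1.6 and 2.12 TPM in wild-type clone 22. Means were 11.4-fold higher for Gkn1 and 6.1-fold higher for Gkn2. Within each arm the clones were spread widely: the clone labelled knockout with more Gkn1 had less Gkn2.

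Tff1 stood at 825, 815 and 824 TPM in clone 17 and 434, 420.2 and 478 TPM in clone 42, against 155, 181 and 246 TPM in wild-type clone 15 and 212, 199.9 and 326 TPM in wild-type clone 22. Its neighbour Tff2 did not follow. Tff2 stood at 19.1, 15.4 and 18.9 TPM in clone 17 and 152, 116 and 139.5 TPM in clone 42, against 134, 105 and 115 TPM in wild-type clone 15 and 23.7, 26.9 and 46.8 TPM in wild-type clone 22. Clone 17 held the least Tff2 of the 4 clones and the most Tff1. Tff3, the third gene of the cluster, was low throughout, at 3.82, 3.4 and 5.53 TPM in clone 17 and 1.71, 0.278 and 0.606 TPM in clone 42, against 1.13, 2.57 and 3.18 TPM in wild-type clone 15 and 0.45, 1.12 and 0.93 TPM in wild-type clone 22.

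Ctse stood at 222, 232 and 219 TPM in clone 17 and 232, 231 and 229 TPM in clone 42, against 107, 89.8 and 107 TPM in wild-type clone 15 and 169, 169 and 122 TPM in wild-type clone 22. The clones labelled knockout were nearly equal for this gene. Lgals4 stood at 105, 104 and 111 TPM in clone 17 and 181, 174 and 169 TPM in clone 42, against 33.6, 32.3 and 47.8 TPM in wild-type clone 15 and 56.1, 52.9 and 80.3 TPM in wild-type clone 22. Plac8 was abundant in all 4 clones: 1169, 1264 and 1285 TPM in clone 17 and 2076, 1968 and 2026 TPM in clone 42, against 1153, 1177 and 1292 TPM in wild-type clone 15 and 1329, 1287 and 1675 TPM in wild-type clone 22. Spink4 did not exceed 1.07 TPM in any 2838 library and was listed at 0 in 8 of the 12.

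Of the 11795 genes tested in 2838, 3.53% had arms without overlap with the knockout side higher and 1.52% with it lower, and nothing is read from the 6 members, which were chosen with this contrast in view. The 6 members were Tff1, Gkn1, Gkn2, Ctse, Mucl3 and Lgals4. Arms without overlap make each of them higher in all 4 pairs of a clone labelled knockout and a wild-type clone, so the pairs add nothing for them. Tff2 was higher in 1 pair, lower in 2 and overlapped in 1. Tff3 was higher in the 2 pairs with clone 17 and overlapped in the 2 with clone 42. Plac8 was higher in the 2 pairs with clone 42 and lower in the pair of clone 17 and clone 22. These pairs are of the same contrast, and nothing is read from their counts either.

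**Figure D2:**
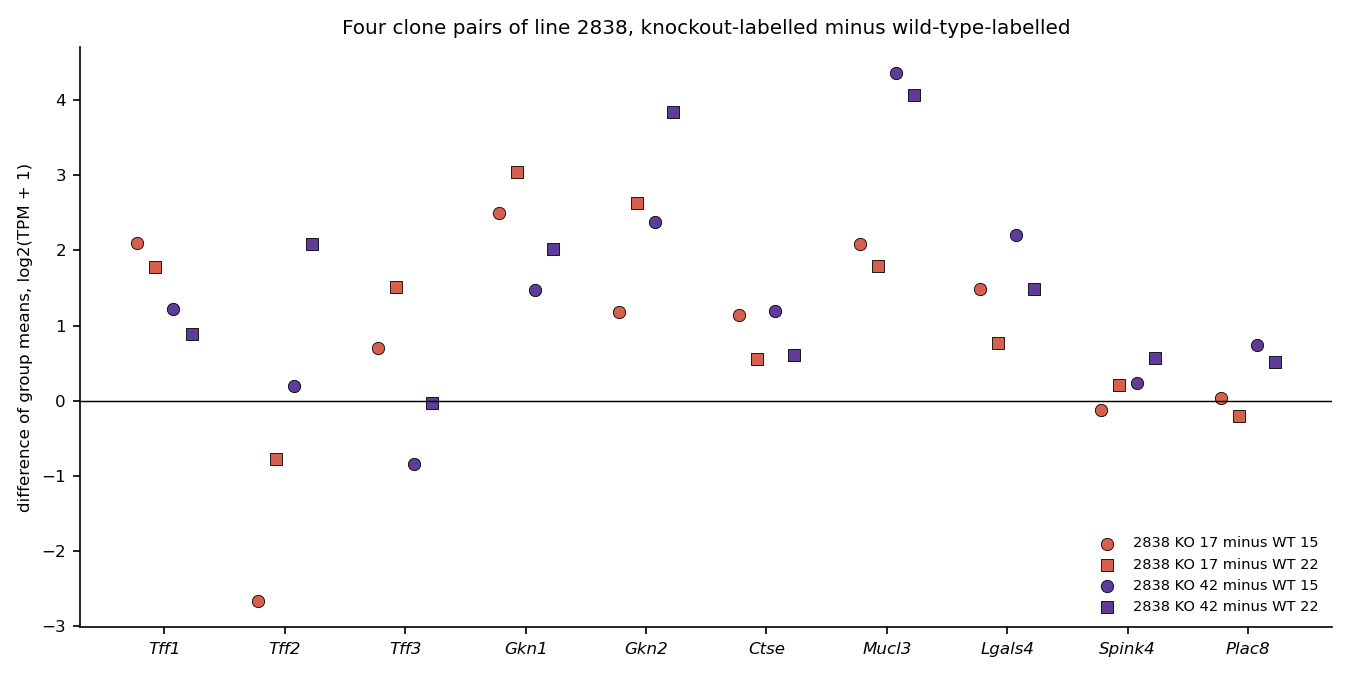
Difference of group means on the log2(TPM + 1) scale (vertical axis) for each gene (horizontal axis) in the 4 pairs of a 2838 clone labelled knockout (red, clone 17; purple, clone 42) and a wild-type clone (circle, clone 15; square, clone 22). Mucl3 runs from 1.79 to 4.35, whereas Tff2 lies at -2.66 and -0.78 with clone 17 and at 0.20 and 2.09 with clone 42.

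The order of the 6 groups, taken as a description, separated the members into kinds. Tff1, Tff2, Tff3, Spink4 and Lgals4 were highest in the 1151 re-expressing cells, and the next group lay below them without overlap. Gkn2, Mucl3 and Plac8 were highest in 2838 clone 42 and Gkn1 in 2838 clone 17, also without overlap with the next group. For Ctse clones 42 and 17 shared the top and overlapped. The 1151 cells labelled knockout were lowest for Tff1, Tff2, Tff3, Gkn1, Gkn2, Ctse, Mucl3 and Plac8, but not for Lgals4, for which wild-type clone 15 was lowest, or Spink4. Wild-type clones 22 and 15 overlapped for Tff1 and Mucl3. For Plac8, wild-type clone 22, the 1151 re-expressing cells, clone 17 and wild-type clone 15 each overlapped their neighbour in the order.

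Whether the 2 clones labelled knockout differ from each other was tested with limma on log2(TPM + 1) over the 6 libraries of clones 42 and 17. The choice of members did not name this contrast but drew on levels in both clones, so the test is not independent of it. Tff2, Mucl3, Gkn2, Lgals4 and Plac8 were higher in clone 42, and Tff1, Gkn1 and Tff3 were lower. The trefoil factors and the gastrokines thus each split, with members of one cluster moving in opposite directions. Of the 10 members, 9 entered the test, 8 were called at an adjusted p under 0.05, against 49.3% of the 11332 genes tested, so a call by itself sets no gene apart here. Tff3 passed the filter on low values through the clone 17 libraries, where it was high, so its call supports nothing further. Of the other 8 tested, 5 were called higher and 2 lower.

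Tff2 had 136 ± 18.2 TPM in clone 42 and 17.8 ± 2.07 TPM in clone 17 (SD, n = 3 each), and differed by 2.86 on the log2 scale (SE 0.117, limma adjusted p = 2.37e-06). Mucl3 had 480.3 ± 24.3 TPM in clone 42 and 99.1 ± 3.14 TPM in clone 17, differing by 2.27 (SE 0.0522, limma adjusted p = 2.31e-07). These were the widest of the 9 differences. Gkn2 was 2.38-fold higher in clone 42 (log2 difference 1.21, SE 0.107, limma adjusted p = 6.75e-05). Lgals4 (log2 difference 0.71, SE 0.0504, limma adjusted p = 2.41e-05) and Plac8 (0.71, SE 0.047, limma adjusted p = 1.69e-05) were higher by a similar margin.

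In the other direction, Tff1 had 444 ± 30.1 TPM in clone 42 and 821 ± 5.26 TPM in clone 17 (SD, n = 3 each), and differed by -0.89 on the log2 scale (SE 0.0524, limma adjusted p = 9.63e-06). Gkn1 had 4.38 ± 0.164 TPM in clone 42 and 10.1 ± 1.98 TPM in clone 17 (log2 difference -1.03, SE 0.145, limma adjusted p = 6.89e-04). Tff3 differed by -1.55 (SE 0.289, limma adjusted p = 0.00284). Ctse had 231 ± 1.53 TPM in clone 42 and 224 ± 6.8 TPM in clone 17, and the difference of 0.043 (SE 0.0426) did not pass (limma adjusted p = 0.435). Over all genes tested the median log2 difference was -0.014. With all 12 libraries of the line in one fit, in which 17.2% of genes were called, the number of members called was again 8, Tff3 among them.

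Between the wild-type clones, 22 against 15, no member was called (limma, 8 of 10 tested), nor was more than 1 of 11393 genes (0.00878%), and 719 genes (6.31%) had an unadjusted p under 0.05. Of the members, Tff2, Gkn2, Ctse and Lgals4 had an unadjusted p under 0.05, as did Tff3, which met the filter through clone 15. Tff2 had 32.5 ± 12.5 TPM in clone 22 and 118 ± 14.6 TPM in clone 15 (SD, n = 3 each), without overlap, a log2 difference of -1.88 (SE 0.272, limma adjusted p = 0.128). Without clone 22 replicate 3, the library that stands apart, 48 genes were called (0.423%), and Tff2 was the only member among them, at a log2 difference of -2.17 (SE 0.132, limma adjusted p = 0.00889). Gkn2 had 2.09 ± 0.476 TPM in clone 22 and 7.93 ± 3.35 TPM in clone 15 (limma adjusted p = 0.344, and 0.173 without that library). Tff1, with 246 ± 69.6 TPM in clone 22 and 194 ± 46.7 TPM in clone 15, overlapped (limma adjusted p = 0.803). The median over all genes was -0.158 in this contrast, 0.061 without that library and -0.005 with median-of-ratios scaling. With all 12 libraries in one fit, 1.92% of genes were called, and Tff2 (limma adjusted p = 0.00257), Gkn2 (0.0208) and Ctse (0.048) were among them.

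**Figure D3:**
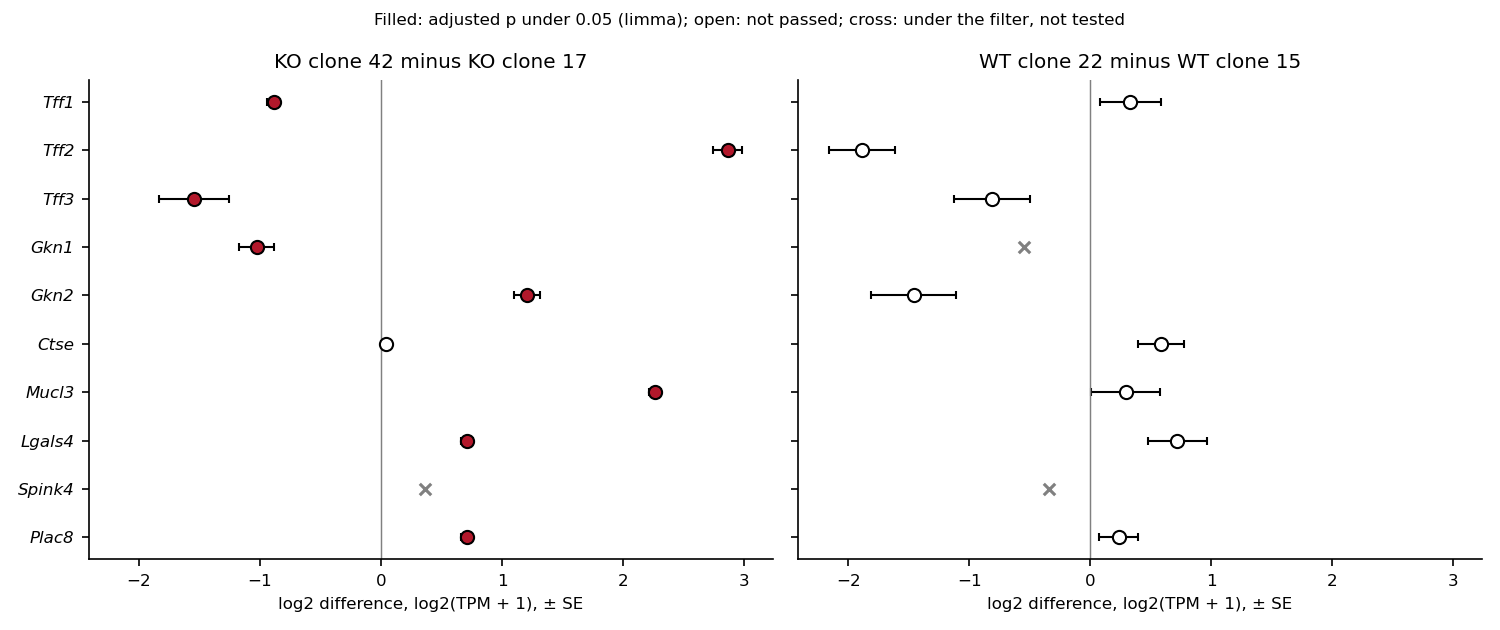
Log2 difference ± SE (horizontal axis, log2(TPM + 1) scale) of each gene between the 2 clones labelled knockout (left, 42 minus 17) and between the 2 wild-type clones (right, 22 minus 15), n = 3 libraries each; filled points passed an adjusted p under 0.05, open points did not and crosses were not tested. Tff2 is 2.86 higher in clone 42 on the left and 1.88 lower in clone 22 on the right, and Ctse lies at 0.043 on the left.

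The balance within each gene cluster can be read from ratios within a library, which do not depend on its scaling. Tff1 was 43.2 to 52.9 times as abundant as Tff2 in clone 17 and 2.85 to 3.61 times in clone 42, against 1.16 to 2.13 times in wild-type clone 15 and 6.96 to 8.94 times in wild-type clone 22. In the 1151 re-expressing cells the ratio was 7.62 to 8.9. Gkn2 was 1.33 to 2.36 times as abundant as Gkn1 in clone 17 and 8.73 to 10.5 times in clone 42, against 5.29 to 11.1 times in wild-type clone 15 and 4.94 to 8.45 times in wild-type clone 22. Clone 17 stood outside the range of the other 3 clones for both ratios. Gkn1 stood at only 0.258 to 1.17 TPM in the wild-type clones, so little can be read from their gastrokine ratios.

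Genes around the members on the chromosome were compared in the same contrasts. The 3 protein-coding genes on either side of the trefoil cluster (Glp1r, Umodl1 and Abcg1, and Tmprss3, Ubash3a and Rsph1) had group means of at most 0.517 TPM, and none entered a test. Abcg1 lies 7.32 kb from Tff3 and Tmprss3 lies 13.99 kb from Tff1. Within 500 kb of the Tff1 start, 6 other genes were tested in 1151, of which 3 rose and 1 fell (limma). The one that fell, Slc37a1, a sugar-phosphate exchanger whose start lies 121.52 kb away, differed by -3.31 (limma adjusted p = 6.78e-06). Slc37a1 was named after its value was seen. Beside the gastrokine pair, Antxr1, an anthrax toxin receptor, rose by 1.02 in 1151 cells labelled knockout (limma adjusted p = 2.94e-05), and Gkn3, Bmp10 and Arhgap25 had group means of at most 0.046 TPM. Within 500 kb of the Gkn2 start, 8 other genes were tested in 1151, of which 4 rose and 1 fell, and in 2838 none of 10 was called (limma on clone means). The percentages of all genes called were 61% in 1151 and 0.0763% in 2838.

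**Figure D4:**
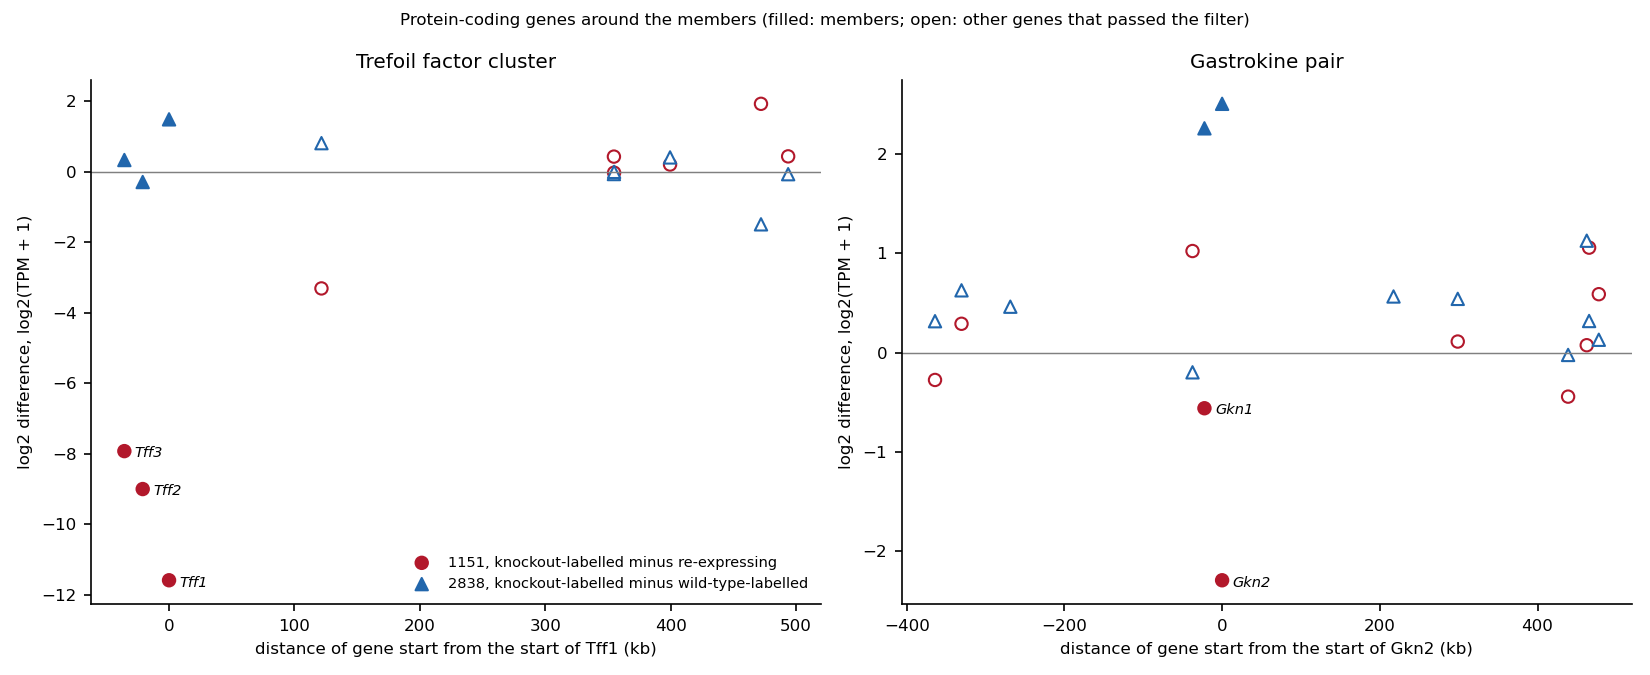
Log2 difference on the log2(TPM + 1) scale (vertical axis) of protein-coding genes by the distance of their start from that of Tff1 (left) or Gkn2 (right), in kb; filled symbols are members, open symbols other genes that passed the filter, circles line 1151 (labelled knockout minus re-expressing) and triangles line 2838 (labelled knockout minus wild type). In 1151 the 3 trefoil factors lie at -7.93, -9.01 and -11.60, and Slc37a1 at -3.31.

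Other genes of the gastric mucous programme were tested in 1151, where 34% of all tested genes were called higher and 27% were called lower. Of 20 genes of gastric surface and neck cells, 11 were tested, of which 7 fell and 2 rose (median log2 change -0.88, against 0.055 over all genes). Of these, 3 met the filter on low values in all libraries of 1 group and not of the other. They entered the test through the group where they were high. The 3 were Muc5ac, which fell, and Cxcl17 and Fut2, which rose and were named after their values were seen. Of the other 8, 6 fell and 0 rose. Muc5ac, the gel-forming mucin of the gastric surface, stood at 0.276, 0.247 and 0.357 TPM in the cells labelled knockout, against 23.5, 19.4 and 21.3 TPM in the re-expressing cells (a log2 difference of -4.11), and its call is not used as support. Sult1c2, a sulfotransferase, fell by 4.07 and Anxa10, a gastric annexin, fell by 3.31 on the log2 scale (limma adjusted p = 4.59e-07 and 1.63e-06). The abundant tetraspanin Tspan8 had 412 ± 3.72 TPM in the cells labelled knockout, against 995 ± 9.29 TPM in the re-expressing cells (SD, n = 3 each), a log2 change of -1.27 (limma adjusted p = 3.12e-06), and Vsig1, an adhesion protein of gastric epithelium, fell by 0.83 (limma adjusted p = 1.56e-04). Muc6, the mucin of neck cells, did not exceed 0.0452 TPM in any library, and Agr2, a disulfide isomerase needed for mucin folding, was listed at 0 in all 18. A value of 0 in every library cannot tell an absent transcript from a gene that was not quantified.

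Of 10 tested genes of mucin folding and glycosylation, 7 were lower and 1 was higher in 1151 (median -0.74). Without Ern2, which met the filter through the re-expressing group alone, 6 of 9 were lower and 1 was higher. Ern2, the stress sensor of mucous cells, was listed at 0 in the 3 libraries labelled knockout, against 8.09, 6.36 and 6.48 TPM in the re-expressing cells. Galnt7, which starts mucin-type sugar chains, fell by 2.01 (limma adjusted p = 2.13e-06) and Xbp1, a secretory transcription factor, fell by 1.57 (limma adjusted p = 1.63e-06). Galnt3, of the same family as Galnt7, had 31.6 ± 4.48 TPM in the cells labelled knockout, against 30.5 ± 0.849 TPM in the re-expressing cells and did not pass (limma adjusted p = 0.751).

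Among 16 tested regulators of foregut epithelium, 9 fell and 3 rose in 1151 (median -0.74). Without 2 that met the filter in all libraries of the knockout group only, 9 of 14 fell and 3 rose. Gata4, a zinc finger factor of stomach and intestine, stood at 1.77, 3.23 and 2.83 TPM in the cells labelled knockout, against 18.9, 17.0 and 19.6 TPM in the re-expressing cells (log2 change -2.45, SE 0.163, limma adjusted p = 2.67e-05). The epithelial ETS factor Elf3 fell by 1.89 (limma adjusted p = 2.97e-06). Hnf4a, the most abundant of these factors, fell by 0.78 (limma adjusted p = 0.00108). Foxa2, a forkhead factor of foregut endoderm, had 77.2 ± 5.53 TPM in the cells labelled knockout, against 82.5 ± 3.16 TPM in the re-expressing cells and did not pass (limma adjusted p = 0.261).

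Other glandular programmes were scarcely measured. Of 7 genes of gastric chief and parietal cells none was tested in 1151, and of 12 intestinal genes 2 were: Vil1, villin of the brush border, fell by 2.85 (limma adjusted p = 4.55e-06), and the intestinal factor Cdx2 rose by 0.43 (limma adjusted p = 8.46e-04). The goblet cell mucin Muc2 did not exceed 0.0794 TPM in any library. Of the relatives of the members, 7 were tested in 1151, of which 4 fell and 1 rose. Lgals7 is among the 4, but met the filter through the re-expressing group alone (log2 difference -3.11), and without it 3 of 6 fell. Other galectins moved in different directions: Lgals8 fell by 0.84 and Lgals2 rose by 1.80 (limma adjusted p = 4.38e-04 and 5.46e-05). Lgals1, the most abundant galectin listed, had 3276 ± 559 TPM in the cells labelled knockout, against 3586 ± 143 TPM in the re-expressing cells and did not pass (log2 difference -0.14, limma adjusted p = 0.373). Without knockout replicate 3 it passed (-0.27, limma adjusted p = 0.0323).

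In 2838 none of the 45 genes of these lists that were tested was called between the clones labelled knockout and the wild-type clones (limma on clone means), where 9 of 11795 genes were called in all. Of the 45, 7 had an unadjusted p under 0.05, as did 5.61% of all genes. Their median log2 difference was 0.309, against 0.075 over all genes.

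Between clones 42 and 17 the same lists were divided, with 11 higher and 14 lower of 43 tested, against 23.6% and 25.7% of all genes. Sult1c2 had 201 ± 18.1 TPM in clone 42 and 53.8 ± 4.54 TPM in clone 17 (SD, n = 3 each), a log2 difference of 1.88 (limma adjusted p = 3.02e-06), the same direction as Tff2 and Mucl3. The water channel Aqp5 was higher by 1.89 (limma adjusted p = 6.23e-04). Anxa10, with 49.8 ± 2.17 TPM in clone 42 and 159 ± 6.21 TPM in clone 17, was lower by 1.66 (limma adjusted p = 1.38e-06), as Tff1 and Gkn1 were. The regulators Hnf4a (-0.59, limma adjusted p = 1.53e-04) and Gata4 (-0.515, limma adjusted p = 7.54e-04) were lower in clone 42 and Foxa1 was higher (1.00, limma adjusted p = 8.73e-04). Klf4, a Krüppel-like factor of mucous epithelia, was called lower (-0.16, limma adjusted p = 0.025), a call lost with no trend, with 12 libraries in one fit and with any of 4 libraries left out (limma adjusted p from 0.0562 to 0.676). Tspan8 and the membrane mucin Muc1 were slightly higher in clone 42, by 0.28 and 0.30 (limma adjusted p = 3.80e-04 and 0.00298). Of the processing genes, Xbp1 was lower in clone 42 (-0.80, limma adjusted p = 2.98e-05), while the glycosyltransferases Gcnt1 and C1galt1 were higher by 0.31 and 0.23 (limma adjusted p = 0.00203 and 0.0465). The call of C1galt1 was also lost with no filter, with no trend, with a replicate block and with any of 5 libraries left out (limma adjusted p from 0.0606 to 0.131). The intestinal keratin Krt20 was higher by 0.30 and Vil1 differed by -0.44 (limma adjusted p = 9.98e-04 and 0.0101). Atp4a, the parietal cell proton pump, did not pass (-0.46, limma adjusted p = 0.156). With all 12 libraries in one fit the calls of Hnf4a (limma adjusted p = 0.518), Muc1, Gcnt1, C1galt1, Vil1 and Krt20 were lost. Of the 7 relatives of the members tested, 6 were lower and 0 were higher, among them Plac9a (-0.59), Lgals1 (-0.52), Lgals8 (-0.49) and Lgals2 (-0.25), with limma adjusted p = 2.61e-04, 1.60e-04, 0.00109 and 0.00124, all 4 of which lost their call with 12 libraries in one fit.

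**Figure D5:**
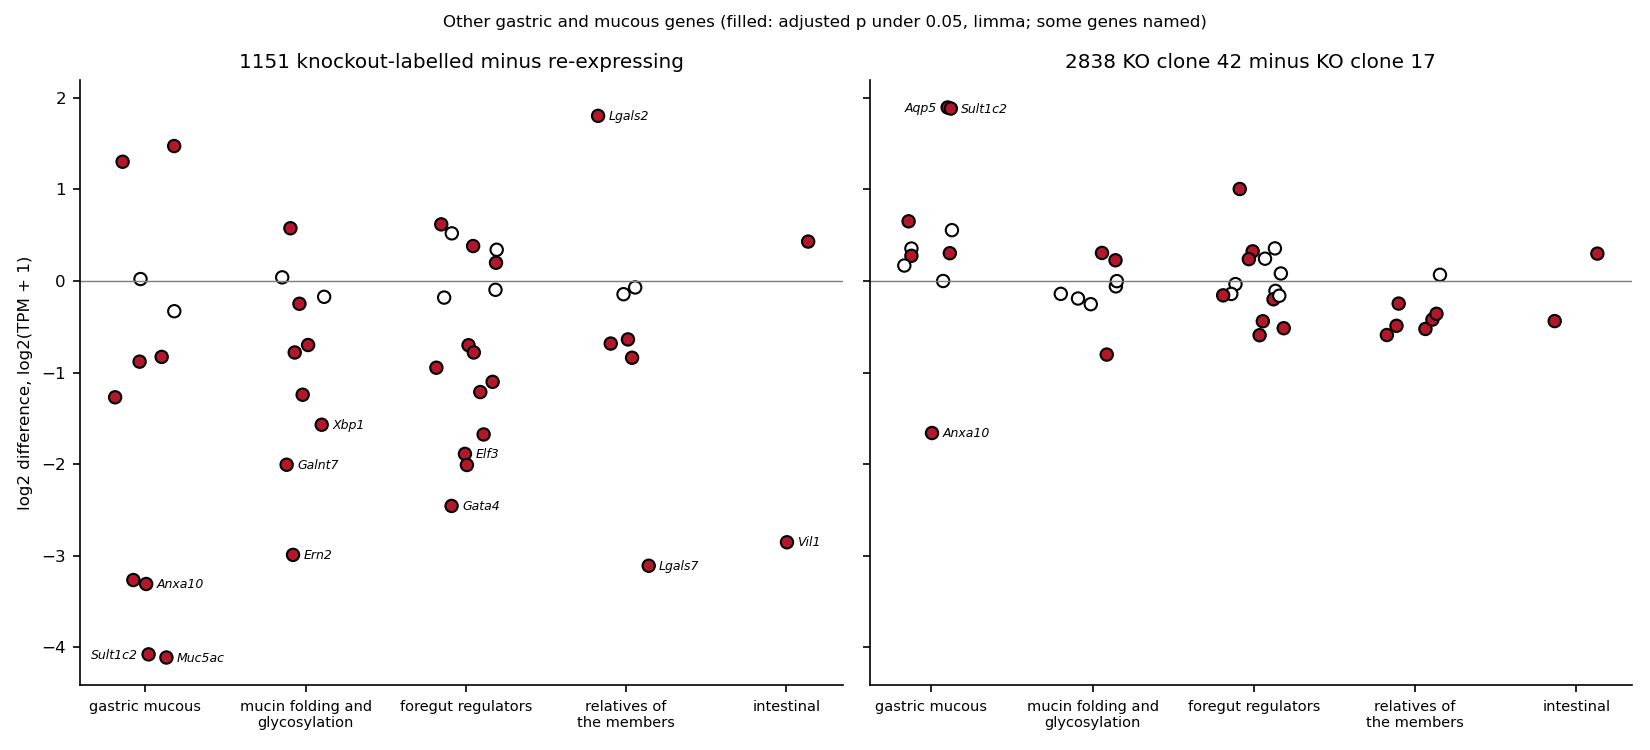
Log2 difference (vertical axis, log2(TPM + 1) scale) of the tested genes of 5 lists (horizontal axis), in 1151 cells labelled knockout minus re-expressing (left) and in 2838 clone 42 minus clone 17 (right); filled points passed an adjusted p under 0.05. On the left Muc5ac lies at -4.11 and Lgals2 at 1.80, and on the right Sult1c2 lies at 1.88 and Anxa10 at -1.66.

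The genes whose profile was most like that of Tff1 over the 18 libraries, among 10082 genes with a group mean of at least 5 TPM, were Pdlim1 (Pearson r = 0.98), Tm7sf2 (0.971), Ang (0.965) and Stard10 (0.962). Pdlim1, a cytoskeletal adaptor, averaged 63.6 TPM in 1151 cells labelled knockout against 412 TPM in re-expressing cells. In 2838 its means were 263 TPM in clone 17 and 249 TPM in clone 42, against 167 TPM in wild-type clone 15 and 245 TPM in wild-type clone 22. For Gkn2 they were Anxa4 (0.933), Mettl7b (0.922), Ltbr (0.919), Clic5 (0.917) and Rab27a (0.909). Clic5, a chloride channel protein, averaged 0.136 TPM in 1151 cells labelled knockout against 1.06 TPM in re-expressing cells. In 2838 its means were 4.78 TPM in clone 17 and 10.35 TPM in clone 42, against 2.22 TPM in wild-type clone 15 and 2.23 TPM in wild-type clone 22. These correlations describe 18 libraries that fall into 2 lines and 6 groups of 3, and libraries of a group share their source.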

How the data were processed

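PolyA RNA of 18 libraries in 6 groups of 3 was analysed, grouped by the labels. The authors' deposited values are TPM. The submitters' processing notes name Salmon, mm10 and DESeq2; versions and annotation are not given in the sources used here. TPM keeps no depth, so no counting interval is given. Columns summed to between 998353 and 998961 TPM, and no pair of libraries was identical.

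Tests used limma (version 3.58.1, R version 4.3.3) on log2(TPM + 1) with a mean-variance trend, and p-values were adjusted by Benjamini-Hochberg over all genes at 1 TPM or more in at least 3 libraries of the fit (calls at an adjusted p below 0.05). Clones 42 and 17, clones 22 and 15, and the 1151 groups were fitted over their 6 libraries, and 2838 labelled knockout against wild type on 4 clone means. Separate cultures are not mentioned in the labels, and p-values measure only the spread between these libraries, which may be technical. Gene positions are from GENCODE M21 (mm10). The fits were also run on simulated data with independent noise for each gene. That run checks the code and not how well the fits suit these libraries.

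The members, the lists and the tests were chosen with earlier results of these data known. Of each list, the text names up to 3 called genes with the largest change and the 2 most abundant tested genes, with exceptions named as such; Muc6, Agr2 and Muc2 were named for their lack of signal. Some genes that the rules name are not reported here. Alternatives were another pseudocount (0.1), no filter, a mean filter of 5 TPM, quantile normalization, median-of-ratios scaling, no trend, a replicate block, other samples or units in the fit and leaving out each library.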

Additional observations from a re-analysis of the deposited data

Results flagged for a closer look

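The log2 difference between cells labelled knockout and their controls had opposite signs in the 2 lines, in every library, for 6 members. The difference in 2838 minus that in 1151 was 13.09 for Tff1, 5.26 for Ctse, 4.80 for Gkn2, 4.15 for Mucl3, 3.91 for Lgals4 and 2.82 for Gkn1 on the log2(TPM + 1) scale. Gkn1 stayed under 1 TPM in every 1151 library. Its difference was -0.56 in 1151 and 2.26 in 2838, so most of its value comes from 2838. The members were chosen for this pattern, so it is a description, and the difference was not tested.

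Of the 83 genes of the other lists, 5 showed such an opposition. The share of all genes with this pattern is not given here, so nothing is read from that count. Gcnt3 (4.49), a glycosyltransferase of mucins named after its values were seen, Elf3 (2.43), Klf4 (2.38) and Tspan8 (1.64) were lower in 1151 and higher in 2838 in the cells labelled knockout. Gcnt3 averaged 4.24 TPM in the 1151 cells labelled knockout against 49.4 TPM in the re-expressing cells, and 55.3 TPM in the 2838 clones labelled knockout against 23.6 TPM in the wild-type clones. Klf4 averaged 22.3 TPM in the 1151 cells labelled knockout against 73.2 TPM in the re-expressing cells, and 165 TPM in the 2838 clones labelled knockout against 103 TPM in the wild-type clones. Cdx2 was flagged in the other direction (-0.95), but stayed under 1 TPM in every 2838 library. These differences between the lines were not tested either, and line and batch cannot be told apart. Within 2838, Gcnt3, Klf4, Elf3 and Tspan8 did not pass on clone means (limma adjusted p = 0.137, 0.561, 0.807 and 0.999). In 1151 each of these genes passed (limma adjusted p at most 3.12e-06).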

How the results depend on the processing

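The number of members called between clones 42 and 17 was 8, Tff3 among them, in every alternative run except a mean of at least 5 TPM. It was 7 there, since Tff3 was then not tested. No tested member changed direction or lost its call in this contrast. The genes called in that contrast numbered 5583, from 4634 to 5282 with 1 library left out, and 2031 with 12 libraries in one fit. Between clones 22 and 15, 1 gene was called, from 0 (without any one clone 15 replicate) to 48 (without clone 22 replicate 3) with 1 library left out, and 2 with pseudocount 0.1, 8 with no filter, 17 with median-of-ratios scaling, 14 with quantile normalization, 6 with no trend, 0 with a replicate block and 226 with 12 libraries in one fit. Members called there were 0, 0 to 1 with 1 library left out, and 3 with 12 libraries in one fit. In 2838 labelled knockout against wild type, 9 genes were called, from 0 (without clone 22 replicate 3) to 24 (without clone 22 replicate 2) with 1 library left out, and 14 without clone 22 replicate 1, 5 when either clone 15 replicate 2 or clone 17 replicate 3 was left out, and 4 in the absence of clone 42 replicate 3. They were 0 with no filter, 3 with median-of-ratios scaling, 4 with quantile normalization, 4 with no trend, 289 with a replicate block and 431 with libraries as units. Genes of the other lists called in this contrast were 0, but 3 with a replicate block and 5 with libraries as units, all higher. The replicate block was here fitted on the 12 libraries. Like libraries as units, it takes the libraries of a clone as replicates, so nothing is read from the calls of either. In 1151 the 36 called list genes ranged from 31 to 40. Galnt3 changed sign in 1151 with median-of-ratios scaling (-0.017), quantile normalization (-0.023) and with 1 library left out (from -0.065, without knockout replicate 1, to 0.129), none of them called. The cause of these changes was not tested.

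Same-numbered libraries did not deviate together in any contrast in all 3 pairs (correlations of deviations between -0.166 and 0.22), so the numbers were not taken as a pairing. With the replicate block, 5251 genes were called between clones 42 and 17 and 6672 in 1151.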
